A study of Homo sapiens with 6 samples.

Results

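The SLC25 family comprises the carriers that move small molecules across the inner mitochondrial membrane, with a few members in the outer membrane or in peroxisomes. All genes that were annotated as protein-coding and whose name begins with SLC25A were taken, which gave 48 of the 58978 genes in the count table. Of these, 39 had enough reads to be tested. All libraries came from untreated HT29 cells, a long-established human line derived from a colorectal adenocarcinoma, grown in McCoy's 5A medium. The control group carried a control short hairpin RNA (shCTRL, labelled WT, 3 libraries) and the other group a hairpin against FITM2 (shFITM2, labelled as a knockdown of FITM2, 3 libraries). FITM2 is a protein of the endoplasmic reticulum needed for lipid droplet formation, and the series concerns lipid droplets and the trafficking of an interferon receptor chain. The labels do not say how many hairpins or clones were used, nor whether a group's libraries stem from different cultures. The p-values therefore reflect the spread among the 6 libraries, which may be technical.

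Carriers of this family share a fold built from repeated pairs of membrane helices and, in most cases, exchange one substrate of the matrix for one of the cytosol. They supply the matrix with ADP and phosphate for ATP synthesis, export ATP and citrate, run the malate-aspartate shuttle that brings reducing equivalents from cytosolic NADH into mitochondria, and import amino acids, nucleotides, cofactors and iron. In proliferating colon cells, citrate export feeds fatty acid and sterol synthesis, and the aspartate-glutamate carriers supply cytosolic aspartate.

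The libraries held 16964075 to 18855731 counts. FITM2, the targeted gene, was lower in every shFITM2 library, at 4.83 to 5.98 CPM (counts scaled to the size of the library) against 10.4 to 13.2 in shCTRL, with a log2 fold change of −1.12 ± 0.157 (adjusted p = 0.000242 by edgeR). Of 8 colon epithelial markers, 6 (EPCAM, CDH1, KRT8, KRT18, KRT20 and VIL1) had group means of 92.3 CPM or more. CDH17 was at 7.87 CPM in shCTRL and 6.54 in shFITM2, and CDX2 was low, at 0.817 and 1.72. Of the leukocyte, fibroblast and endothelial markers, LYZ (842 CPM in shCTRL and 902 in shFITM2) and CD14 (10.6 and 11.3) were present. The others were at or below 1.18 CPM in both group means, and COL1A2 and PDGFRB had no reads. In bulk libraries such as these, fewer cells of a type and less RNA per cell cannot be told apart. Fold changes over all genes followed the GC content of the transcripts, the percentage of bases that are G or C. Fold changes of the members are therefore given from the fit with group as the sole term (the group fit) and from the same test after each library's GC trend was removed with an offset (the GC-corrected fit). The library of shCTRL replicate 3 stood apart from the other shCTRL libraries in this trend. For each library, the slope on GC was taken of its log2 deviation from each gene's mean over the 6 libraries. These slopes are thus relative to one another. That of shCTRL replicate 3 was −0.06 per 10 percentage points. The slopes of shCTRL replicates 1 and 2 were −0.27 and −0.34, and those of shFITM2 lay between 0.18 and 0.26.

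**Figure D1:**
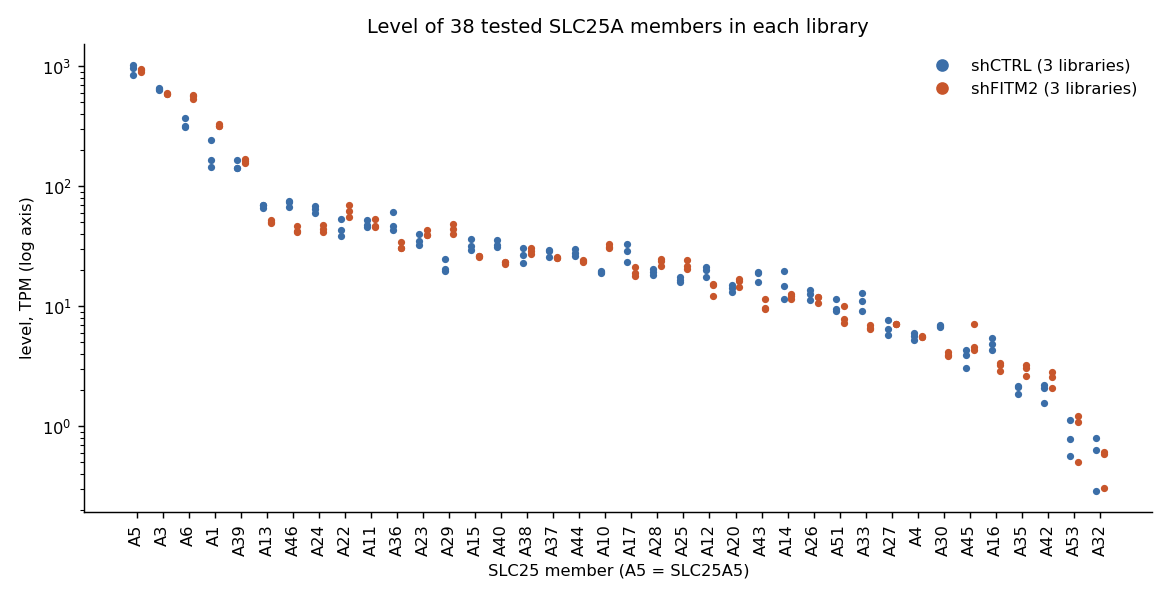
Level of 38 of the 39 tested SLC25A members in the 6 libraries, in TPM on a log axis, ordered by the mean over all libraries (A5 stands for SLC25A5). A few members, led by A5, A3 and A6, lie far above the rest, and the groups separate clearly for A6, A13, A46 and A29.

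A handful of carriers made up most of the family's mRNA. Levels between genes are given as TPM, the read count divided by the length of the principal transcript and scaled to a common total in each library. SLC25A5, the main ADP/ATP carrier of dividing cells, had the highest mean level over all libraries, at 937 TPM. It was followed by the phosphate carrier SLC25A3 at 621 TPM, the ADP/ATP carrier SLC25A6 at 445 TPM, the citrate carrier SLC25A1 at 253 TPM and SLC25A39, a carrier needed for mitochondrial glutathione import, at 156 TPM. These 5 genes held 76.3% of the TPM of the family, and the next, SLC25A13, stood at 59.7 TPM. With the longer gene length of the deposited table in place of the principal transcript, SLC25A3 ranked 4 instead of 2. The levels of SLC25A5 and SLC25A3 did not overlap in any library, nor did those of SLC25A3 and SLC25A6, whereas SLC25A13 and SLC25A46 did overlap in shCTRL.

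The summed level of the family was higher in shFITM2, at 3339, 3290 and 3207 TPM, than in shCTRL, at 2986, 3116 and 3036 TPM. The groups did not overlap, and SLC25A6 and SLC25A1 had the largest differences in TPM. These sums are not GC-corrected, and in the GC-corrected fit the log2 fold changes of SLC25A6 and SLC25A1 were 0.02 and 0.08, without a call. The 9 members too low to be tested were SLC25A18 with 2 to 17 reads per library, SLC25A2 with 1 to 5, and SLC25A21, SLC25A31, SLC25A34, SLC25A41, SLC25A47, SLC25A48 and SLC25A52 with 0 to 7. SLC25A31 is the ADP/ATP carrier of the germ line and SLC25A47 is a carrier of the liver. SLC25A52 had no read in any library, which does not show that its mRNA is absent.

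The ADP/ATP carriers SLC25A5 and SLC25A6 show how far the members differ in base composition while remaining close in sequence. The first 180 bases of both coding sequences are shown, because this pair holds the largest share of the family's mRNA among the pairs of paralogs. Its ratio as counted did not overlap between the groups, whereas after GC adjustment it did. Capitals mark the bases at which the pair differ.
SLC25A5: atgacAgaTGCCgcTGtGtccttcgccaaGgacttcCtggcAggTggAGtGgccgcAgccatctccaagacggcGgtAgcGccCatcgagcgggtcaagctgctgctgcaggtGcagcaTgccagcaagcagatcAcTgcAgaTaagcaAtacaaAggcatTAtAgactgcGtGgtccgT
SLC25A6: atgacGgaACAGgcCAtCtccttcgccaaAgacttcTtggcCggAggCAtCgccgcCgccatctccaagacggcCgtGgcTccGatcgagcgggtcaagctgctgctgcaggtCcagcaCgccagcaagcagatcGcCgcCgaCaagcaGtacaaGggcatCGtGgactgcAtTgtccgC
Of the 34 differences in this stretch, 26 lay at the last position of a codon, where a change often leaves the amino acid as it is. Over the whole coding sequence of 894 bases the pair were 78.7% identical, and 150 of 190 differences lay at the last position of a codon. At 101 of these, SLC25A5 had A or T and SLC25A6 had G or C, and at 10 it was the other way round. G or C filled 59.7% of the last codon positions in SLC25A5 and 90.3% in SLC25A6. SLC25A4, the ADP/ATP carrier of heart and muscle, had 70.1%. The sequences are those of the principal GENCODE release 29 transcripts. SLC25A5 (ENSG00000005022) lies on chromosome X at 119468400 to 119471319, plus strand, and SLC25A6 (ENSG00000169100) in the pseudoautosomal part of chromosome X at 1386152 to 1392724, minus strand (GRCh38).

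Across the family, 19 of 39 tested members were called in the group fit (adjusted p under 0.05 by edgeR's quasi-likelihood F-test, Benjamini-Hochberg over all genes tested), 7 higher and 12 lower in shFITM2. This is 48.7% of the members, against 48.7% of all 14809 tested genes (24.2% higher and 24.5% lower). In the GC-corrected fit 14 were called, 3 higher and 11 lower, or 35.9% of the members against 29.2% of all 14635 genes with a GC value (11.8% higher and 17.4% lower). The number called higher in the GC-corrected fit fell from 3 to 1 without shFITM2 replicate 1 or without shFITM2 replicate 2. Members called in the same direction in both fits numbered 7, of which SLC25A29 was higher and SLC25A13, SLC25A15, SLC25A30, SLC25A33, SLC25A43 and SLC25A46 lower. That is 17.9% of the members, against 17.9% of all genes (7.91% higher and 10% lower). The share of members called in the group fit, and in both fits, was thus close to that of all genes. The CPM of the groups did not overlap for 24 members (61.5%), 10 higher and 14 lower in shFITM2, against 59% of all genes (29.1% higher and 29.9% lower). SLC25A22 was called in opposite directions in the 2 fits, which held for 2.15% of all genes. The median log2 fold change of the members, shFITM2 minus shCTRL, was −0.08 in the group fit and −0.12 in the GC-corrected fit, against 0.00 and −0.03 over all tested genes.

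**Figure D2:**
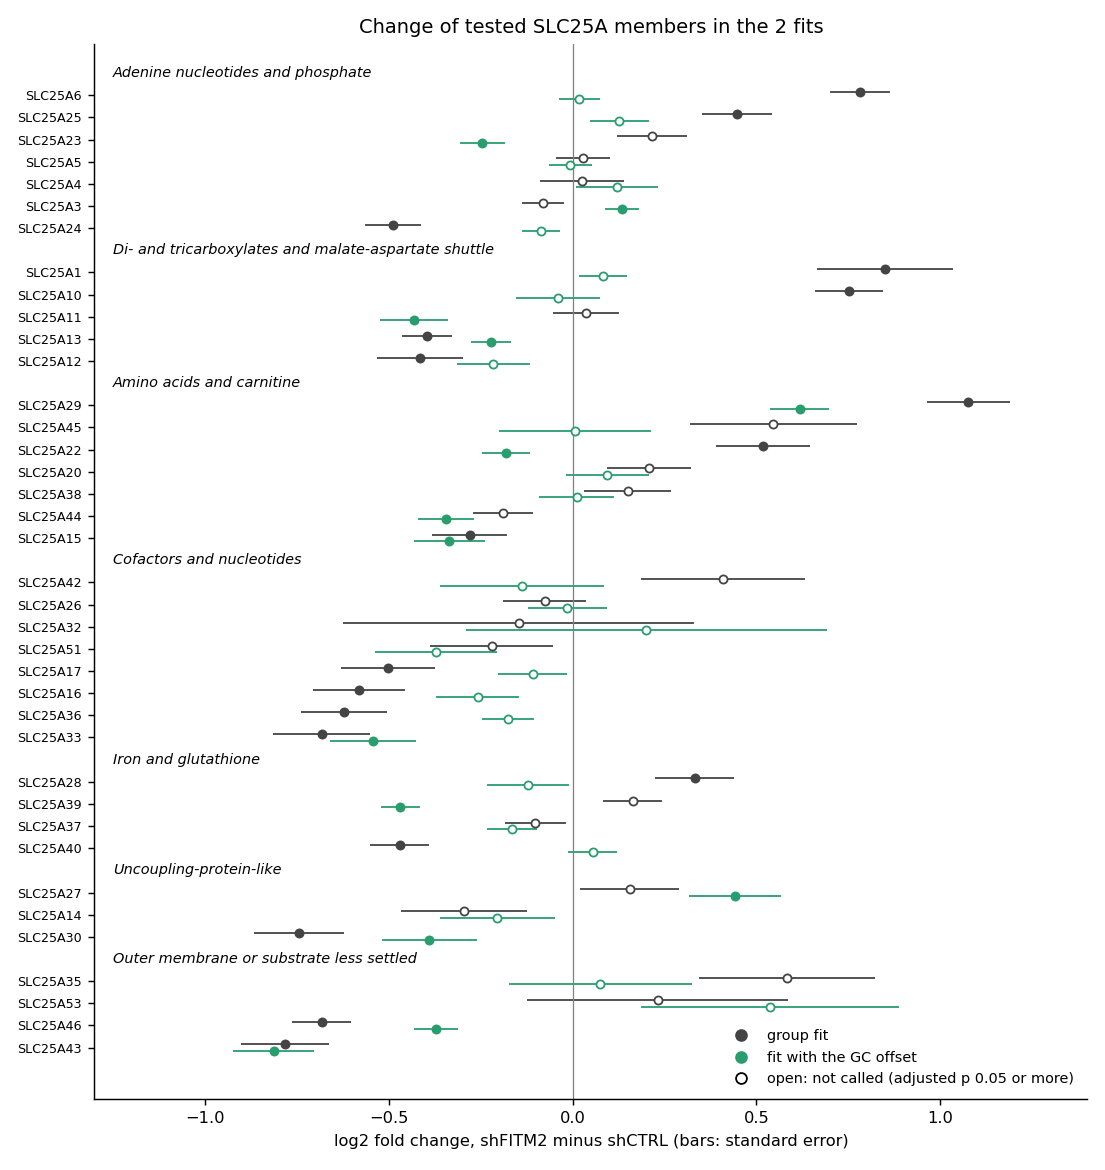
Log2 fold change (shFITM2 minus shCTRL) of 38 of the 39 tested SLC25A members, grouped by role, with the standard error as bars. Dark points are the group fit and green points the fit with the GC offset, and filled points passed the test; SLC25A29 lies highest in both fits and SLC25A43 lowest in both, while SLC25A6, SLC25A1 and SLC25A10 move from well above 0 to near 0.

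The members' changes in the group fit followed their GC content. Across the 39 members, which share the same 6 libraries and are not independent replicates, the Spearman correlation of log2 fold change and transcript GC content was 0.776, against 0.744 across all genes with a GC value. It was −0.02 in the GC-corrected fit across the members, where the offset is built to remove this trend. Of the 13 members over 55% GC, 7 were called higher and 0 lower in the group fit. Over all genes in that range, 59.5% were called higher and 0.723% lower. Of the 13 members under 45% GC, 9 were lower and 0 higher, against 54% and 1.88% of all genes in that range. The members between these limits held 3 called lower and 0 higher, with 14.2% and 16.9% of all genes there. The content of G or C at the last codon position ran from 31.1% in SLC25A40 to 90.3% in SLC25A6, with a median of 59.7%, and at the other positions of the codon from 42.3% to 59.1%. Within the coding sequence, the range was thus wider at the last position of the codon than at the others.

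**Figure D3:**
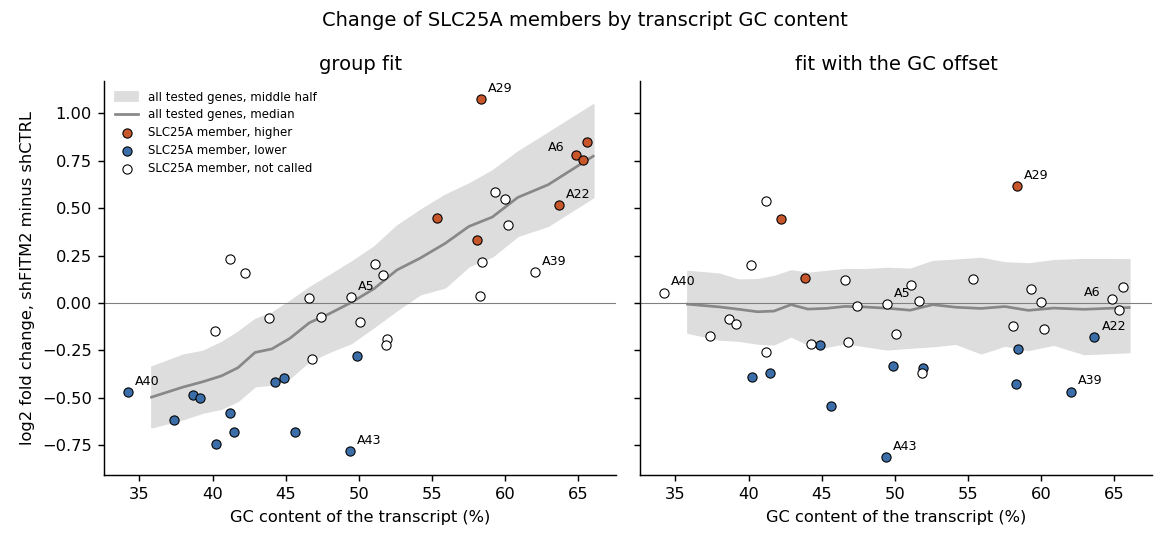
Log2 fold change of 38 tested SLC25A members against the GC content of the transcript (%), in the group fit (left) and with the GC offset (right). The grey line is the median and the grey band the interquartile range of all tested genes in bins of GC content. Red points were called higher, blue points lower and white points not called. On the left the members rise with GC content along the grey line, and A29 lies above the band and A43 below it on both sides.

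Carriers of adenine nucleotides and phosphate numbered 9, of which 7 were tested. SLC25A5 mRNA was at 565, 585 and 493 CPM in shCTRL and 573, 564 and 539 CPM in shFITM2. The groups overlapped, and the log2 fold change was 0.03 ± 0.0726 (SE; adjusted p = 0.765, edgeR) and −0.01 in the GC-corrected fit (adjusted p = 0.959). SLC25A6 was at 301, 287 and 354 CPM in shCTRL and 554, 550 and 516 CPM in shFITM2. Every shFITM2 library lay above every shCTRL library, and the log2 fold change was 0.78 ± 0.0813 (adjusted p = 5.92e-05, edgeR). SLC25A6 in the GC-corrected fit had 0.02 ± 0.0568 (adjusted p = 0.843), and its GC-adjusted CPM overlapped between the groups. It was called in the GC-corrected fit when no expression filter was applied (0.20, adjusted p = 0.00143). SLC25A4 was low, at 11.4 ± 0.645 CPM in shCTRL and 11.6 ± 0.237 in shFITM2 (SD, n = 3 per group), and not called in either fit.

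Among the transcripts of the ADP/ATP carriers, counted in TPM without GC correction, SLC25A5 held 74.9%, 76.4% and 69.0% in shCTRL and 62.4%, 62.2% and 62.6% in shFITM2. The share of SLC25A6 was 24.7%, 23.2% and 30.6% in shCTRL and 37.3%, 37.4% and 37.0% in shFITM2. SLC25A4 held under 1% in every library (0.362% to 0.450%). The shCTRL replicate 3 library lay nearest to shFITM2. SLC25A5 and SLC25A6 have many processed pseudogenes, and those named after them had 0 to 2 reads per library. How reads that map to several places were handled is not given in the sources used here. Some reads of SLC25A5 and SLC25A6 may therefore be missing or counted at other loci.

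SLC25A3, which brings in the phosphate used by ATP synthase, was at 490, 500 and 500 CPM in shCTRL and 465, 478 and 465 CPM in shFITM2. The shFITM2 libraries were the lower ones, without a call (−0.08, adjusted p = 0.264, edgeR). The direction turned in the GC-corrected fit, where it was called higher, at 0.13 ± 0.0458 (adjusted p = 0.038). That call was lost in 5 of 6 fits with a library left out (adjusted p up to 0.175), all except that without shCTRL replicate 3. It was also lost with the replicate block (adjusted p = 0.0609), with a spline of 3 degrees of freedom (0.0643), with the GC content of the principal transcript (0.0811) and without an expression filter (0.53), and held in 4 of 13 alternatives. The ATP-Mg/phosphate carriers, which respond to cytosolic calcium and change the adenine nucleotide pool of the matrix, went different ways in the group fit. SLC25A24 was at 126, 131 and 117 CPM in shCTRL and 83.5, 89.1 and 94.7 CPM in shFITM2, and fell by 0.49 on the log2 scale (adjusted p = 0.000429). SLC25A25 was at 26.6, 24.8 and 28.1 CPM in shCTRL and 39.5, 33.8 and 35.1 CPM in shFITM2, and had 0.45 (adjusted p = 0.00276). Neither was called in the GC-corrected fit (−0.09 and 0.13). SLC25A23 had 0.22 in the group fit (adjusted p = 0.0798) and −0.25 in the GC-corrected fit (adjusted p = 0.00691), a turn of direction. The group fit called SLC25A23 higher without shCTRL replicate 3 (0.30, adjusted p = 0.000481, edgeR) and without an expression filter (0.23, adjusted p = 0.0464). SLC25A25 shares 665 exonic bases with SLC25A25-AS1 on the opposite strand, and the strand setting of the counting is not given in the sources used here.

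The carriers of di- and tricarboxylates and of the malate-aspartate shuttle included 5 tested members. SLC25A1, which exports citrate for cytosolic acetyl-CoA, was at 111, 123 and 183 CPM in shCTRL and 249, 258 and 243 CPM in shFITM2. The groups did not overlap, and the log2 fold change was 0.85 ± 0.184 (adjusted p = 0.00921, edgeR). The GC-corrected fit gave 0.08 ± 0.0654 (adjusted p = 0.379). The dicarboxylate carrier SLC25A10 was at 16.4, 16.3 and 17.1 CPM in shCTRL and 29.2, 27.1 and 27.4 CPM in shFITM2, a log2 fold change of 0.75 (adjusted p = 0.000127) that became −0.04 in the GC-corrected fit (adjusted p = 0.835). SLC25A10 shares 1221 exonic bases with the gene AC139530.2 on the same strand, which had 0 reads.

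The shuttle itself needs a malate-oxoglutarate carrier, SLC25A11, and an aspartate-glutamate carrier, SLC25A12 or SLC25A13. SLC25A13 was at 100, 99.3 and 95.6 CPM in shCTRL and 76.9, 74.0 and 73.6 CPM in shFITM2. It was lower in every shFITM2 library, before and after GC adjustment, with log2 fold changes of −0.39 ± 0.0682 and −0.22 ± 0.0537 (adjusted p = 0.000771 and 0.00569, edgeR). SLC25A12 was at 28.9, 26.7 and 23.9 CPM in shCTRL and 17.1, 21.6 and 21.0 CPM in shFITM2, with −0.42 (adjusted p = 0.012) and −0.22 in the GC-corrected fit (adjusted p = 0.121). Leaving out shCTRL replicate 1 or shFITM2 replicate 1 ended the call in the group fit (adjusted p = 0.0597 and 0.0679). SLC25A11 overlapped between the groups and was not called in the group fit (41.3, 44.4 and 40.2 CPM against 47.2, 41.6 and 40.3, adjusted p = 0.756). It was called lower in the GC-corrected fit, at −0.43 ± 0.0918 (adjusted p = 0.00258). SLC25A11 shares 244 exonic bases with RNF167, and SLC25A12 shares 181 with METAP1D, on the opposite strand.

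Carriers of amino acids and carnitine numbered 11, with 7 tested, and held the largest rise of the family. SLC25A29 (ENSG00000197119, chromosome 14, 100291111 to 100306547, minus strand, GRCh38), which imports basic amino acids such as arginine and lysine, was at 21.7, 21.7 and 27.1 CPM in shCTRL and 54.1, 50.3 and 44.3 CPM in shFITM2. Every shFITM2 library was well above every shCTRL library, also in GC-adjusted CPM (38.9 to 44.9 against 26.3 to 28.6). The log2 fold change was 1.08 ± 0.113 and 0.62 ± 0.0806 in the GC-corrected fit (adjusted p = 6.26e-05 and 4.29e-05, edgeR). The GC value used was that of the longest coding transcript, 58.4%. The principal transcript of SLC25A29 has 65.9%, and with that value the log2 fold change was 0.28 (adjusted p = 0.0229).

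SLC25A15, the ornithine carrier of the urea cycle and of polyamine supply, was at 21.7, 26.1 and 23.2 CPM in shCTRL and 19.7, 19.2 and 19.6 CPM in shFITM2. It was lower in every shFITM2 library, with −0.28 ± 0.101 and −0.33 ± 0.0956 in the GC-corrected fit (adjusted p = 0.0384 and 0.0151, edgeR). Its call was lost in 4 of 6 left-out fits in each fit, with adjusted p up to 0.13 and 0.0688. The group fit also lost it with the replicate block (adjusted p = 0.0726), with DESeq2's Wald test (0.0745) and without an expression filter (0.0762), and kept it in 6 of 13 alternatives. SLC25A22, a glutamate carrier, was at 55.1, 48.7 and 68.7 CPM in shCTRL and 91.1, 82.5 and 73.1 CPM in shFITM2. It was called higher in the group fit (0.52 ± 0.128, adjusted p = 0.00793) and lower in the GC-corrected fit (−0.18 ± 0.0644, adjusted p = 0.0458). The call in the GC-corrected fit was lost in 3 of 6 left-out fits (adjusted p up to 0.193) and held in 7 of 13 alternatives. The branched-chain amino acid carrier SLC25A44 was at 44.8, 46.6 and 42.1 CPM in shCTRL and 38.0, 39.3 and 39.8 CPM in shFITM2, with −0.19 (adjusted p = 0.0734) and −0.34 in the GC-corrected fit (adjusted p = 0.00312). Without shCTRL replicate 3, the group fit also called SLC25A44 lower (−0.24, adjusted p = 0.0102, edgeR). SLC25A20, the carnitine-acylcarnitine carrier through which long-chain fatty acids enter the matrix, was not called in either fit.

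**Figure D4:**
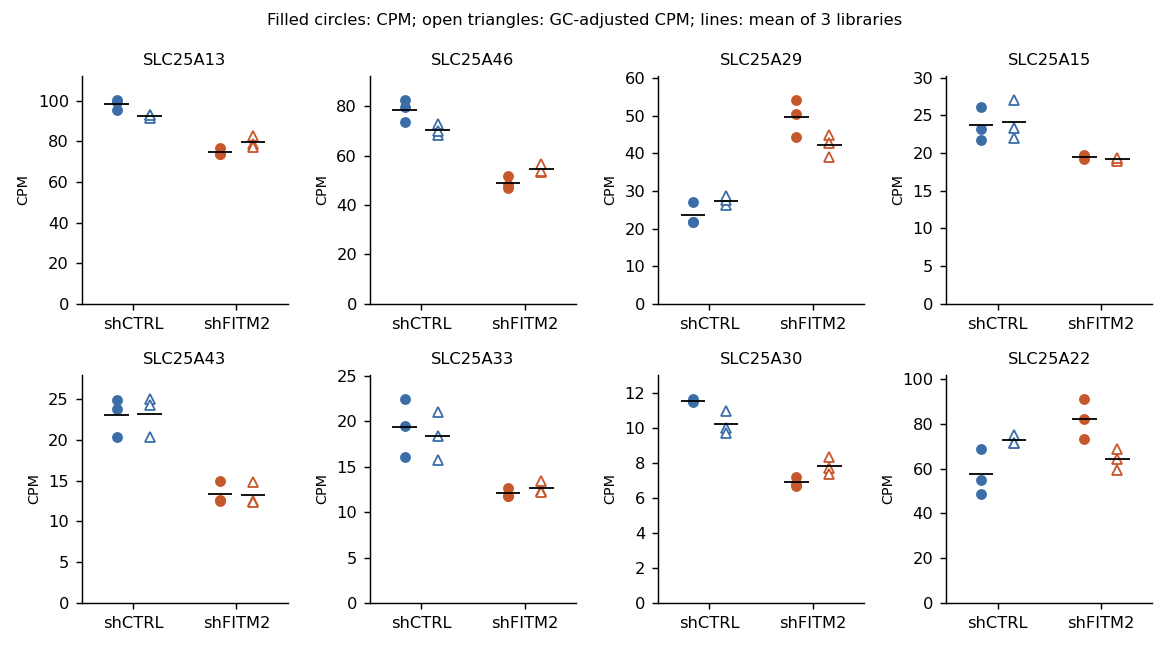
CPM by library (filled circles) and GC-adjusted CPM (open triangles) of the 7 SLC25A members called in the same direction in both fits and of SLC25A22, called in opposite directions, with lines at the mean of 3 libraries. SLC25A29 is higher in shFITM2 on both scales, 6 members are lower on both, and SLC25A22 changes sides.

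Of 9 tested carriers of cofactors and nucleotides, 0 were called higher and 4 lower in the group fit, where 24.2% and 24.5% of all genes were. Of those called lower, SLC25A16, SLC25A17 and SLC25A36 lie under 45% GC. In that range 1.88% of all genes were called higher and 54% lower in the group fit. In the GC-corrected fit the counts were 0 and 1, with 11.8% and 17.4% of all genes. SLC25A33, a pyrimidine nucleotide carrier linked to mitochondrial DNA and RNA synthesis, was at 19.6, 22.4 and 16.1 CPM in shCTRL and 12.7, 11.7 and 11.8 CPM in shFITM2. The groups did not overlap on either scale, and the log2 fold change was −0.68 ± 0.131 and −0.54 ± 0.117 in the GC-corrected fit (adjusted p = 0.00145 and 0.0025, edgeR). Its paralog SLC25A36 was at 99.3, 129 and 92.6 CPM in shCTRL and 66.1, 67.6 and 74.8 CPM in shFITM2. It had −0.62 (adjusted p = 0.00167) and −0.17 in the GC-corrected fit (adjusted p = 0.077). The call of SLC25A36 in the GC-corrected fit was gained without shCTRL replicate 1 (−0.23, adjusted p = 0.0445) and without shCTRL replicate 3 (−0.21, adjusted p = 0.00835).

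SLC25A16, linked to coenzyme A in the matrix, had −0.58 (adjusted p = 0.00287, edgeR), and SLC25A17, a carrier of the peroxisomal membrane, had −0.50 (adjusted p = 0.0069). The GC-corrected fit gave −0.26 and −0.11, both without a call. SLC25A26, which imports S-adenosylmethionine, SLC25A42, which imports coenzyme A, and SLC25A51, the NAD carrier, were not called in either fit. SLC25A32, the folate carrier, had only 7 to 18 reads per library. It shares 2547 exonic bases with the gene AC012213.5 on the same strand, which had 0 reads. It also shares 406 with DCAF13 on the opposite strand, which had 14535 reads over all libraries against 77 for SLC25A32. Whether reads in shared exons were counted is not given in the sources used here.

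The iron and glutathione carriers were all tested. SLC25A39 was at 105, 102 and 122 CPM in shCTRL and 127, 124 and 119 CPM in shFITM2, which overlapped (0.16, adjusted p = 0.114, edgeR). Without shCTRL replicate 3, the group fit called SLC25A39 higher (0.24, adjusted p = 0.000574, edgeR). In the GC-corrected fit it was called lower, at −0.47 ± 0.0521 (adjusted p = 1.03e-05), and its GC-adjusted CPM was 139, 143 and 128 in shCTRL and 98.8, 98.7 and 99.1 in shFITM2. SLC25A40, its paralog, was at 59.9, 65.0 and 57.5 CPM in shCTRL and 42.6, 44.5 and 44.6 CPM in shFITM2, with −0.47 (adjusted p = 0.000708) and 0.05 in the GC-corrected fit (adjusted p = 0.585). SLC25A40 shares 142 exonic bases with DBF4 on the opposite strand. Of the iron importers, SLC25A28 was at 12.2, 13.3 and 12.8 CPM in shCTRL and 17.02, 15.01 and 16.2 CPM in shFITM2. The groups did not overlap, with 0.33 ± 0.108 (adjusted p = 0.0239) and −0.12 ± 0.111 in the GC-corrected fit (adjusted p = 0.456). The group fit no longer called it when shCTRL replicate 1, shFITM2 replicate 1 or shFITM2 replicate 3 was left out, or when the replicate number was a block (adjusted p = 0.0884, 0.108, 0.0636 and 0.0518). SLC25A37 was at 65.5, 55.8 and 64.5 CPM in shCTRL and 57.4, 59.2 and 56.7 CPM in shFITM2, which overlapped. It was not called in either fit (−0.10 ± 0.0832 and −0.16 ± 0.0674, adjusted p = 0.338 and 0.08).

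The beginnings of the coding sequences of SLC25A39 and SLC25A40 are shown because this pair turned in the GC-corrected fit. Capitals mark G or C at the last position of a codon, in the first 30 codons.
SLC25A39: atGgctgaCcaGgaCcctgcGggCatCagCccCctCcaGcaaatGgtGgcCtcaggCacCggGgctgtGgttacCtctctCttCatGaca
SLC25A40: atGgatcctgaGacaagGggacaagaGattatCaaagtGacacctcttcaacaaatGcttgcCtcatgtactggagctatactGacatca
In this stretch 22 of 30 last positions were G or C in SLC25A39 and 9 of 30 in SLC25A40. Over the whole coding sequence the shares were 74.9% and 31.1%. SLC25A39 lies on chromosome 17 at 44319625 to 44324870 and SLC25A40 on chromosome 7 at 87833568 to 87876357, both on the minus strand (GRCh38).

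The uncoupling-protein-like carriers are SLC25A14, SLC25A27 and SLC25A30. SLC25A30 was at 11.4, 11.5 and 11.6 CPM in shCTRL and 7.19, 6.79 and 6.66 CPM in shFITM2, groups far apart for their spread. The log2 fold change was −0.74 ± 0.123 and −0.39 ± 0.129 in the GC-corrected fit (adjusted p = 0.0006 and 0.0322, edgeR). The call in the GC-corrected fit was lost in 5 of 6 left-out fits, all except that without shCTRL replicate 2 (adjusted p up to 0.113). SLC25A27 was at 8.80, 10.2 and 7.86 CPM in shCTRL and 9.94, 10.1 and 9.91 CPM in shFITM2, which overlapped (0.16, adjusted p = 0.362). It was called higher in the GC-corrected fit (0.44 ± 0.125, adjusted p = 0.0146), and this call ended when either replicate 1 or replicate 2 of shFITM2 was left out (adjusted p = 0.0573 and 0.0564). SLC25A14 was not called in either fit.

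Of the members in the outer membrane or with a less settled substrate, 2 of the 4 tested were lower in both fits, as were 10% of all genes. SLC25A43 (ENSG00000077713, chromosome X, 119399060 to 119454478, plus strand) is a carrier whose substrate is not settled. It was at 24.9, 23.7 and 20.4 CPM in shCTRL and 14.99, 12.6 and 12.5 CPM in shFITM2. Its groups were far apart, and GC adjustment moved its values little, with log2 fold changes of −0.78 ± 0.119 and −0.81 ± 0.11 (adjusted p = 0.000378 and 5.75e-05, edgeR). SLC25A46 (ENSG00000164209, chromosome 5, 110738136 to 110765161, plus strand), an outer membrane protein of mitochondrial dynamics, was at 82.4, 79.7 and 73.6 CPM in shCTRL and 46.9, 48.1 and 51.9 CPM in shFITM2. It was lower in every shFITM2 library, with −0.68 ± 0.0797 and −0.37 ± 0.0601 in the GC-corrected fit (adjusted p = 9.57e-05 and 0.000277). SLC25A35 and SLC25A53 were not called. In all alternative fits that were run, 13 for each of the 2 fits, SLC25A13, SLC25A29, SLC25A33, SLC25A43 and SLC25A46 kept direction and call.

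The balance within pairs of carriers of one substrate class was compared as the log2 ratio of their read counts, which does not depend on library size. There were 6 pairs, tested by an exact two-sided permutation test, for which 3 against 3 libraries give no p below 0.1. The SLC25A5/SLC25A6 log2 ratio was 0.90, 1.03 and 0.48 in shCTRL and 0.05, 0.04 and 0.06 in shFITM2, a difference of −0.75 (exact permutation p = 0.1, adjusted p = 0.15 over the pairs). After GC adjustment it was 0.42, 0.45 and 0.44 in shCTRL and 0.46, 0.41 and 0.37 in shFITM2, a difference of −0.02 (exact permutation p = 0.5). The groups that were separate as counted overlapped after the adjustment, and the spread among the shCTRL libraries was smaller.

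The SLC25A39/SLC25A40 log2 ratio was higher in every shFITM2 library as counted (1.58, 1.47 and 1.41 against 0.82, 0.65 and 1.09) and lower in every one after GC adjustment (0.88, 0.88 and 0.96 against 1.48, 1.53 and 1.28). The differences were 0.63 and −0.52 (exact permutation p = 0.1 for both, adjusted p = 0.15 and 0.2). The SLC25A24/SLC25A25 log2 ratio was 2.25, 2.40 and 2.06 in shCTRL and 1.08, 1.398 and 1.43 in shFITM2. It was lower in every shFITM2 library on both scales, with differences of −0.93 as counted and −0.21 after GC adjustment (exact permutation p = 0.1 for both). For SLC25A28/SLC25A37 the difference was 0.43 as counted (exact permutation p = 0.1) and 0.04 after adjustment (exact permutation p = 0.8). For SLC25A33/SLC25A36 it was −0.06 as counted (exact permutation p = 0.5) and −0.36 after adjustment (exact permutation p = 0.1). SLC25A12/SLC25A13, whose transcripts have similar GC content (44.2% and 44.9%), differed by −0.02 (exact permutation p = 0.9), with overlapping groups on both scales.

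**Figure D5:**
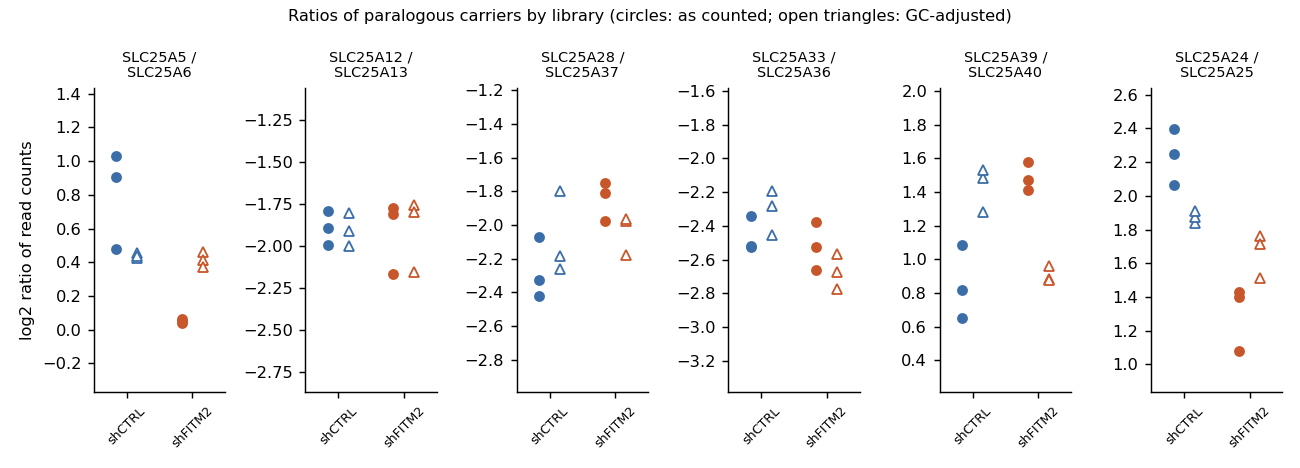
Log2 ratio of read counts of 6 pairs of SLC25A paralogs in each library, as counted (circles) and after GC adjustment (open triangles); all panels span the same range of ratios. The SLC25A5/SLC25A6 ratio separates the groups as counted only, the SLC25A39/SLC25A40 ratio turns over, and SLC25A24/SLC25A25 is lower in shFITM2 on both scales.

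Promoters were examined for the members that fell in both fits. The RefSeq table (GRCh38.p14; 250 bases before and 50 after the start of each gene) held 40 of the 48 members, including 5 of the 6 that fell. The E-box CACGTG, the hexamer bound by MYC-MAX and USF proteins, was found in 7 of these 40 promoters (17.5%) and in 7.43% of all 27305 promoters. The members with it included SLC25A31, SLC25A36, SLC25A38 and SLC25A51, none of which fell in both fits. It was found in 3 of the 5, which are shown with the E-box in capitals.
SLC25A13: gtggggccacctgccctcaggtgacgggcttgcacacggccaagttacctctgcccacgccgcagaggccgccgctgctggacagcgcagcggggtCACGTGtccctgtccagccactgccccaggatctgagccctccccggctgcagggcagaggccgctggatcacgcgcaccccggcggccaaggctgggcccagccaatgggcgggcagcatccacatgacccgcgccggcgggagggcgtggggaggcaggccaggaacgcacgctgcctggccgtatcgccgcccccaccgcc
SLC25A33: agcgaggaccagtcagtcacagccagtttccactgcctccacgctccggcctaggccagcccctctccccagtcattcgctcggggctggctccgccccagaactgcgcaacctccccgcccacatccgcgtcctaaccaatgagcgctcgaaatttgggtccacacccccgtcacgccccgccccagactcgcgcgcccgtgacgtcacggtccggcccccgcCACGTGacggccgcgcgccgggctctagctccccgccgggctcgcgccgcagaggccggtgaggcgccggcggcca
SLC25A46: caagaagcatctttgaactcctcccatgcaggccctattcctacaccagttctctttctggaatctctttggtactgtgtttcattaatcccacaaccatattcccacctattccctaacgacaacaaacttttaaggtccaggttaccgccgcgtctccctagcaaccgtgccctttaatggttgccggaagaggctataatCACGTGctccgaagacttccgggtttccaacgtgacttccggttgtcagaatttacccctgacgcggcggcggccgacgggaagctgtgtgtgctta
The RefSeq starts differ from the ends of the GENCODE genes, and those of SLC25A13 and SLC25A46 lie inside the GENCODE genes. The window of SLC25A46 is wholly within that gene as GENCODE draws it, and the window of SLC25A13 is so in part. The windows lie at chr7:96322049-96322348 (minus strand), chr1:9539215-9539514 (plus strand) and chr5:110738757-110739056 (plus strand). Another 5 motifs were searched on both strands: CCGGAAG (ETS factors), AAGGTCA (estrogen-related receptors), and the NRF1 motif, its core (which includes the full motif) and the YY1 motif, given by name. The member promoters with a match numbered 8, 1, 0, 8 and 0 of the 40. These were 20%, 2.5%, 0%, 20% and 0%, against 10.7%, 3.97%, 1.36%, 8.78% and 0.916% of all promoters. Among the 5 that fell and had a promoter, SLC25A46 held the ETS motif, and none held any other of these 5 motifs. A match describes the letters of this window and is no evidence of binding.

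Genes that act with the carriers were described from lists of related mitochondrial genes. Of the 5 family members under other names, 4 were tested. None was called in the same direction in both fits, against 17.9% of all genes. The carrier-like MTCH1 and MTCH2 had 0.34 and −0.35 in the group fit, both called, and neither was called in the GC-corrected fit. UCP2 had 0.15 in the group fit (adjusted p = 0.131, edgeR). It was called lower in the GC-corrected fit, at −0.36 (adjusted p = 0.000144). The machinery that brings carriers into the inner membrane had 13 tested genes, 5 higher and 5 lower in the group fit and 2 and 3 in the GC-corrected fit. Over all genes the shares were 24.2% and 24.5%, and 11.8% and 17.4%. TOMM70, the outer membrane receptor for carrier precursors, was at 210, 216 and 180 CPM in shCTRL and 107, 117 and 118 CPM in shFITM2. It was lower in both fits (−0.83 and −0.55, adjusted p = 5.24e-05 and 2.6e-06, edgeR). The small chaperones of the intermembrane space divided. TIMM8A (−0.74 and −0.48) and TIMM10B (−0.60 and −0.48) fell in both fits, whereas TIMM10 (0.93 and 0.79) and TIMM8B (0.98 and 1.157) rose in both.

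Among 12 other transporters of the inner membrane, 3 were higher and 5 lower in the group fit (24.2% and 24.5% of all genes), and 1 and 6 in the GC-corrected fit (11.8% and 17.4% of all genes). MPC1, a subunit of the pyruvate carrier, was at 25.3, 26.8 and 20.5 CPM in shCTRL and 12.3, 12.7 and 12.6 CPM in shFITM2, and fell in both fits (−0.95 and −0.73, adjusted p = 0.000135 and 7.34e-05, edgeR). Its partner MPC2 had 0.13 (adjusted p = 0.349) and 0.42 in the GC-corrected fit (adjusted p = 0.00338). The serine carrier SFXN1, SFXN4, ABCB10 and MCU, the pore of the calcium uniporter, also fell in both fits. They had −0.35, −0.44, −0.48 and −0.42 in the group fit and −0.14, −0.39, −0.33 and −0.21 in the GC-corrected fit. With MPC1, 5 of the 12 fell and 0 rose in both fits, against 10% and 7.91% of all genes. SFXN3, SFXN5 and ABCB8 were called higher in the group fit (0.38, 0.54 and 0.38) and not called in the GC-corrected fit. Of the outer membrane porins, VDAC2 fell in both fits (−0.44 and −0.30). Among 8 genes taken as markers of mitochondrial mass, 2 were higher and 6 lower in the group fit (24.2% and 24.5% of all genes). In the GC-corrected fit, 1 was higher and 7 lower (11.8% and 17.4% of all genes). TFAM, the packaging factor of mitochondrial DNA, had −0.65 and −0.23, and COX4I1 had 0.52 and 0.43, all called. The genes of the mitochondrial chromosome took 7.98% to 9.21% of counts in shCTRL and 6.82% to 7.30% in shFITM2. Their part in the changes of the carriers was not tested.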

How the data were processed

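The values are raw read counts for each gene, which the authors deposited for 6 libraries as 1 table. Per the submitters' processing notes, hg19 was the genome, and the tools named, without roles, include featureCounts 1.5.0-p3 and HISAT2 2.0.5 as well as DESeq2 1.16.1. Yet all 58735 genes with an Ensembl identifier had the GRCh38 position of GENCODE release 29, so GRCh38 is used. The library kit is directional, per the labels' protocols.

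Titles gave the groups. edgeR 4.0.16 (robust quasi-likelihood F-test, TMM; limma 3.58.1, R 4.3.3) was run on the whole table after its expression filter (10 counts, 15 in total), with Benjamini-Hochberg adjustment. CPM are counts over TMM library sizes, and TPM use the principal (APPRIS) transcript. For the GC offset, a spline with 6 degrees of freedom was fitted to the deviation of a library from the mean (log2) by GC content of the longest coding transcript. A true difference between the cells that tracks GC content would be removed too. GC-adjusted CPM are CPM divided by that trend. Paralog ratios used a pseudocount of 0.5. The fits were also run on counts simulated with and without a GC trend, and the outcome is not given here. No pair of libraries within a group agreed within sampling noise (chi-square per gene 2.32 to 28.3), so none was merged as a repeat deposit, which does not show that they are separate cultures.

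The members, gene lists and tests were chosen with earlier results of these data known; the promoter motifs and the genes shown as sequences were chosen after seeing the data. Members were given with the value of every library if called in both fits, among the 10 highest in TPM or in a pair; others shown with values were called in one fit or chosen after their values were seen. Alternatives were other normalizations, filters, tests, thresholds, offsets and a replicate block, each library left out in turn, and, added after seeing the data, the GC content of the principal transcript. The values of 1 tested member, which is included in the counts, are not reported here.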

Additional observations from a re-analysis of the deposited data

How the results depend on the processing

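The replicate numbers did not pair the libraries. The correlation of deviations from the group means was −0.0412, −0.0066 and −0.0653 for libraries of the same number. With the replicate number as a block, 6 members were called higher and 11 lower in the group fit, and 2 and 11 with the GC offset. With a library left out, 6 to 10 members were higher and 10 to 14 lower in the group fit, and 1 to 4 and 8 to 14 with the GC offset. With the GC offset and an adjusted p under 0.01, 1 member was higher and 8 lower. Over all genes with the GC offset, the count called higher was 1732, and 1110 and 1130 without shFITM2 replicate 1 and replicate 2 and 986 at an adjusted p under 0.01, where 1586 were lower against 2543. Without an expression filter, the fit with the GC offset also called SLC25A1, SLC25A6, SLC25A12, SLC25A16, SLC25A24 and SLC25A36 and no longer SLC25A3, SLC25A22, SLC25A23 and SLC25A27. Log2 fold changes near 0 changed sign under single settings; the cause was not tested. In the group fit with a library left out, SLC25A5 ranged from −0.0478 to 0.0726 and SLC25A4 from −0.0239 to 0.0563, both lowest without shCTRL replicate 3, and SLC25A11 from −0.0376 to 0.082. With the GC offset and no expression filter, SLC25A5 had 0.0118, SLC25A40 −0.14, SLC25A10 0.15 and SLC25A28 0.0051, and with the GC content of the principal transcript SLC25A5 had 0.0045. With the GC offset and a library left out, SLC25A5 ranged from −0.0808 to 0.0487 (0.0105 without shCTRL replicate 1, 0.0231 without shFITM2 replicate 3), SLC25A1 from −0.0057 to 0.124, SLC25A6 from −0.0601 to 0.0625 and SLC25A10 from −0.192 to 0.0606. The difference in the SLC25A12/SLC25A13 log2 ratio was 0.0043 after GC adjustment and ranged from −0.0943 to 0.104 with a library left out (0.0287 without shCTRL replicate 1). That of SLC25A39/SLC25A40 was −0.52 after GC adjustment, and that of SLC25A33/SLC25A36 ranged from −0.132 to 0.0097 with a library left out. The members with the fewest reads among those tested, SLC25A32, SLC25A35 and SLC25A53, had standard errors of 0.477, 0.239 and 0.355.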

Other observations

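The table also held 45 loci named after SLC25A genes that are not protein coding, mostly pseudogenes and antisense RNAs. Of these, 15 had at least 1 read and 4 were tested. SLC25A25-AS1, the antisense RNA at SLC25A25, was at 18.2, 20.8 and 22.2 CPM in shCTRL and 26.95, 23.3 and 24.8 CPM in shFITM2. It was called in the group fit (0.30 ± 0.107, adjusted p = 0.0368, edgeR) and not with the GC offset (0.10, adjusted p = 0.465), as was SLC25A25 itself. SLC25A3P1, a transcribed processed pseudogene of the phosphate carrier, was at 2.65, 1.46 and 2.35 CPM in shCTRL and 4.34, 3.45 and 3.24 CPM in shFITM2. It was called higher in both fits (0.77 ± 0.258 and 0.70, adjusted p = 0.027 and 0.0448), on 27 to 79 reads per library, while SLC25A3 had −0.08 and 0.13. Reads of a processed pseudogene and of its parent gene may be assigned to each other. SLC25A47P1 and SLC25A5-AS1 were not called.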
